A study of Mus musculus with 3 samples.

Results

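ABC transporter genes were described on 3 expression arrays of neurospheres, the floating colonies that neural precursors form in culture. Members were the genes whose single symbol on a probe set begins with Abc, a subfamily letter from a to g and a digit. Of 22180 genes measured, 48 met this rule, each with 1 probe set, so the choice of the probe set with the highest mean changed nothing for them. By subfamily there were 16 genes of A, 9 of B, 10 of C, 3 of D, 1 of E, 3 of F and 6 of G. All 3 arrays belong to 1 group. Precursors were taken from the wall of the lateral ventricles (the V-SVZ, where stem cells of the postnatal forebrain lie) of wild-type (WT) mice of the CD1 strain at postnatal day 8, and the growth protocol allows a day less. Cultures started at 10 cells per microlitre and ran for 7 days with 10 ng/ml FGF, 20 ng/ml EGF and heparin. Pups were cultured separately per the protocol. The sources used here do not say whether each array holds the RNA of 1 pup, so the spread between arrays may be technical.

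ABC proteins bind and split ATP through a conserved nucleotide-binding domain, and most couple this to moving a substrate across a membrane. Subfamilies A and G are known mainly for moving sterols and phospholipids, B for drugs, bile salts, peptides and mitochondrial substrates, C for organic anions and for regulating ion channels, and D for fatty acids at the peroxisome. Subfamilies E and F have no membrane-spanning part and act on ribosomes. In brain, Abcb1a and Abcg2 are best known from the capillary wall, and Abcg2 is also used as a marker of stem cells that pump out a fluorescent dye.

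Signals are RMA values on the log2 scale and are given in the order of arrays 1, 2 and 3. With 1 group there is no contrast between conditions, so each gene was set against a reference level on its own array. Odorant and pheromone receptor genes of the nose (1405 probe sets) gave that level: their 95th percentile lay at 5.63, 5.53 and 5.71. A gene was called above it when limma's one-sided moderated test gave a p under 0.05 after Benjamini-Hochberg adjustment across all genes. The margin is the signal minus this level. It places a gene against unspecific signal and not against another gene, because probes bind with different strength. In these whole-culture samples fewer cells of a type and less RNA per cell cannot be told apart.

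Of the 48 ABC genes, 27 were above the reference level (56.2%), against 59.1% of all genes. All genes, here and below, include the receptor genes that set the level, most of which lie under it by construction. Shares without the receptor genes were not computed. The median ABC signal was 6.33, 6.22 and 6.41 on the 3 arrays, and the median of all genes was 6.39, 6.38 and 6.40. The family as a whole therefore lay near the share of all genes so counted. The subfamilies differed in their counts. All 7 measured members of D, E and F were above the level. In B it was 5 of 9, in C 6 of 10, in G 3 of 6 and in A 6 of 16 (37.5%). Counted on each array singly, members over that array's level were 6, 6 and 6 in A, 6, 5 and 6 in B, 7, 6 and 8 in C, and 3 on every array in D, in F and in G. The median margin was -0.47 in A, 0.68 in B, 0.40 in C, 3.77 in D, 2.94 in F and 0.46 in G, beside 0.76 over all genes. These are descriptions of small lists, and no test between subfamilies was made.

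**Figure D1:**
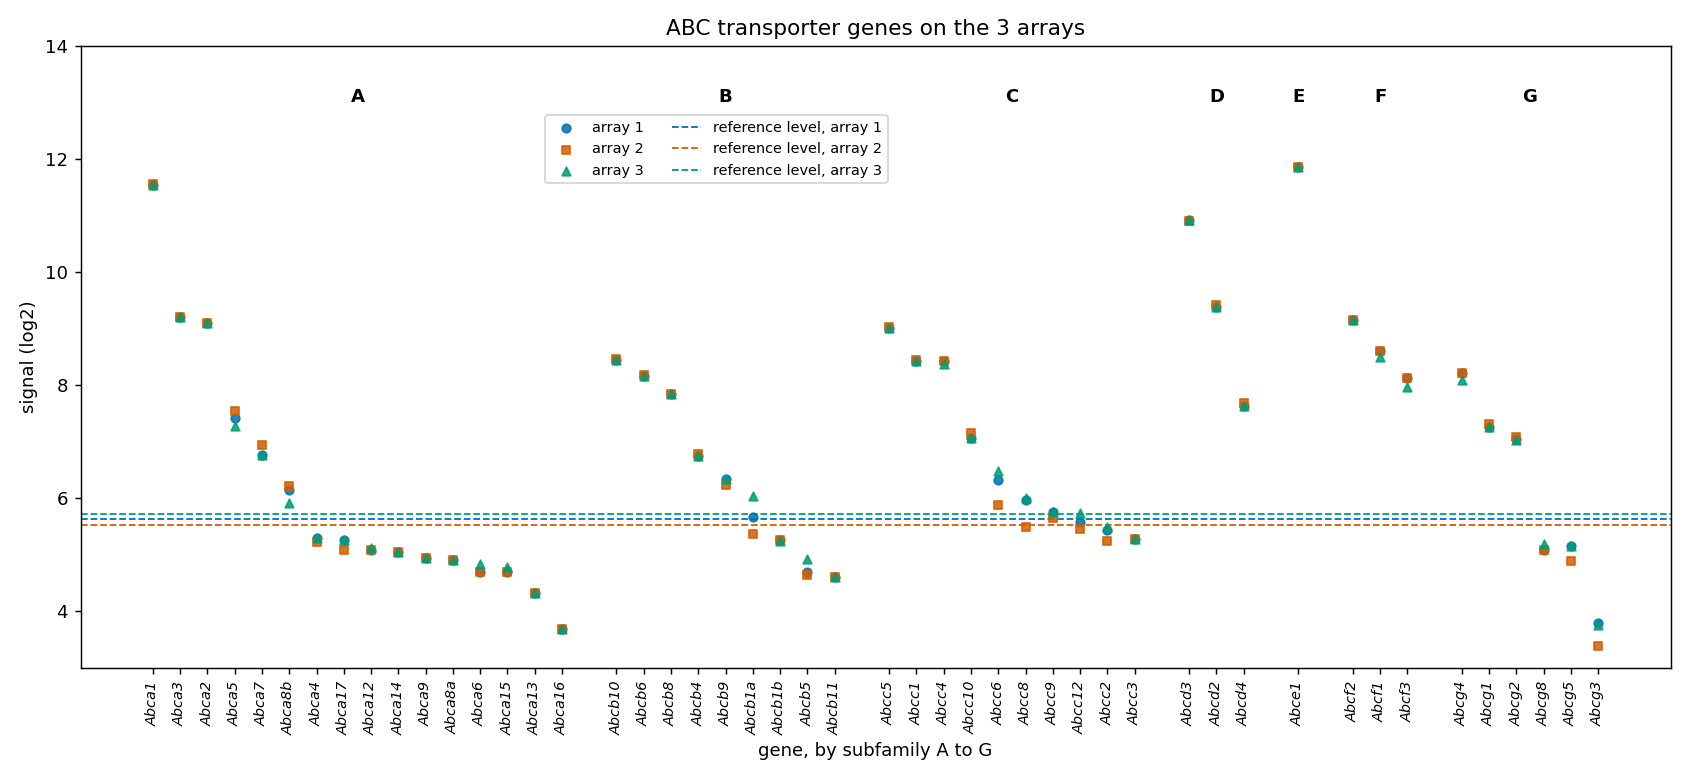
Signal of each ABC gene (log2, vertical axis) on array 1 (circles), array 2 (squares) and array 3 (triangles), grouped by subfamily A to G on the horizontal axis and ordered by mean, with the reference level of each array as a dashed line. All genes of D, E and F lie over the lines, while 10 of 16 genes of A were not above the reference level.

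The count depended on how strict the level was. With the 90th percentile of the receptors, 30 ABC genes were above (66.7% of all genes), and with the 99th percentile 21 were (44.9% of all genes). Over 1 log2 unit above the level on every array were 23 ABC genes, or 47.9%, against 45.9% of all genes. The counts of D, E, F and G stayed at 3, 1, 3 and 3 under these rules. The 4 genes that were above the level without clearing 1 log2 unit on each array were Abca8b, Abcb9, Abcc6 and Abcc8.

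**Figure D2:**
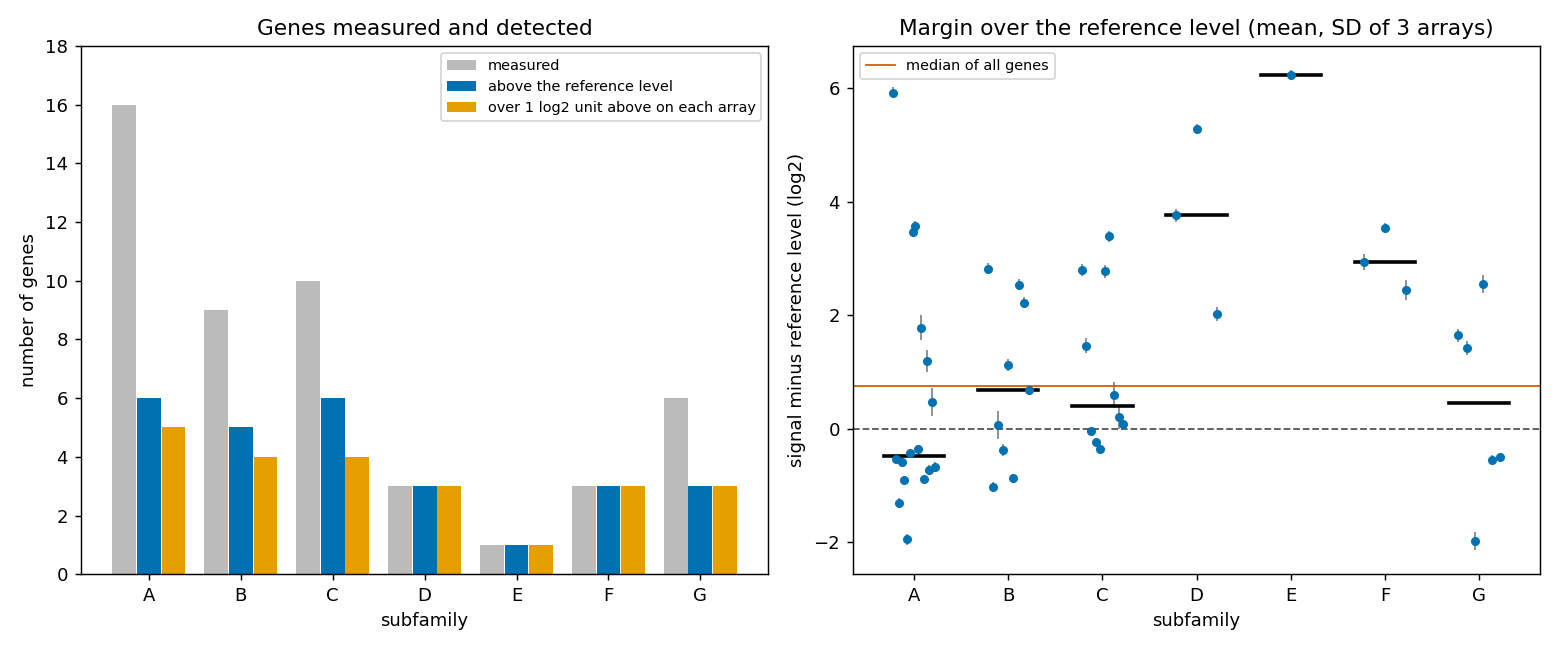
Left, number of genes measured, above the reference level, and over 1 log2 unit above it on each of the 3 arrays, for subfamilies A to G. Right, margin over the reference level (log2) of each gene as mean and SD of 3 arrays, with the median of the subfamily as a black bar; A is the subfamily whose median, -0.47, lies under 0.

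Abce1, the only gene of subfamily E, encodes the factor that splits ribosomes after termination. It had signals of 11.86, 11.86 and 11.86, with a margin of 6.23 ± 0.090 (SD, n = 3) over the reference level. The arrays differed by 0.0055 at most. The spread of its margin is therefore almost wholly that of the reference level. In subfamily F, Abcf1, a translation initiation partner, had 8.60, 8.60 and 8.51 (margin 2.94 ± 0.14). Abcf2 had 9.16 on each array (margin 3.54), and Abcf3 had 8.13, 8.13 and 7.97 (margin 2.46 ± 0.18). All 4 soluble members cleared each level on every array. Of the listed factors that act with Abce1 in release, rescue and recycling, 9 of 9 measured were above the reference level, beside 59.1% of all genes, among them the ribosome rescue gene Pelo (7.10 ± 0.054) and the release factor genes Etf1 (11.74), Gspt1 (9.97 ± 0.014) and Gspt2 (7.14 ± 0.083).

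In subfamily D, Abcd3, an abundant peroxisomal membrane protein gene, had 10.91, 10.91 and 10.91 (margin 5.29 ± 0.089). Abcd2, which encodes a peroxisomal carrier of very long chain fatty acids, had 9.37, 9.42 and 9.37 (margin 3.77 ± 0.11). Abcd4, a lysosomal gene needed for cobalamin export, had 7.63, 7.69 and 7.63 (margin 2.03 ± 0.12). The 3 genes lay over the reference level on each array and at each percentile tried. Of the listed peroxisomal partners 13 of 14 measured were above (92.9%, beside 59.1% of all genes), including the assembly genes Pex3 (10.20), Pex5 (7.31 ± 0.10), Pex6 (7.98) and Pex10 (8.22 ± 0.015). Slc27a2, a fatty acid transport and activation gene, was not above at 4.62 ± 0.092.

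Subfamily B holds genes of mitochondria, lysosomes and the plasma membrane. The 3 measured genes listed as mitochondrial were above the level: Abcb10, linked to haem synthesis, with 8.44, 8.46 and 8.44 (margin 2.83 ± 0.10), Abcb6, a porphyrin-linked gene, with 8.16, 8.18 and 8.16 (margin 2.54 ± 0.10), and Abcb8 with 7.85 on each array (margin 2.23). Of 13 measured genes of iron-sulphur cluster and haem synthesis all were above, beside 59.1% of all genes, for example Iscu (9.64), Lyrm4 (10.43 ± 0.10), Glrx5 (9.51 ± 0.10) and Hscb (7.21 ± 0.15). Abcb9, a lysosomal peptide carrier gene, had 6.34, 6.23 and 6.34 (margin 0.68 ± 0.046). It was above the 95th but not the 99th percentile, and it did not clear 1 log2 unit on each array.

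Abcb1a and Abcb1b, the paired mouse genes of the multidrug pump P-glycoprotein, were not called. Abcb1a had 5.67, 5.37 and 6.03 (margin 0.07 ± 0.24, limma adjusted p = 0.307), over the level on arrays 1 and 3 and under it on array 2. Without array 2 it was called (limma adjusted p = 0.0257, margin 0.18). Abcb1b had 5.26, 5.26 and 5.24 (margin -0.37 ± 0.10) and lay under the level on each array. Abcb4, their neighbour, which encodes a phosphatidylcholine exporter known from liver, had 6.75, 6.77 and 6.75 (margin 1.13 ± 0.10) and was above, though not at the 99th percentile (limma adjusted p = 0.11). Abcb5 had 4.70, 4.64 and 4.93 and the bile salt pump gene Abcb11 had 4.60 on each array, and neither was above.

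In subfamily A, Abca1, which encodes the exporter that loads cholesterol and phospholipid onto apolipoproteins, had 11.54, 11.56 and 11.54 (margin 5.93 ± 0.099). Abca3, a lipid carrier gene of secretory lysosome-like bodies in lung, had 9.20 on each array (margin 3.57), and Abca2, an endosomal gene best known from oligodendrocytes, had 9.10 on each array (margin 3.48). Abca5 had 7.41, 7.54 and 7.27 (margin 1.78 ± 0.22) and Abca7, linked to phospholipid transport and phagocytosis, 6.76, 6.95 and 6.76 (margin 1.20 ± 0.19). The call of Abca7 ended at the 99th percentile (limma adjusted p = 0.0593). Abca8b had 6.15, 6.21 and 5.91 (margin 0.47 ± 0.25, limma adjusted p = 2.8e-09). That p-value rests on a spread pooled over genes, and with the gene's own spread the adjusted p was 0.0704.

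The other 10 genes of A lay under the level on each array. The retinal gene Abca4 had 5.30, 5.23 and 5.30 (margin -0.35 ± 0.056), and Abca17 had 5.26, 5.09 and 5.26 (margin -0.42 ± 0.045). Abca12, the keratinocyte lipid transporter gene, had a mean of 5.10. Means of Abca6, Abca8a, Abca9, Abca13, Abca14 and Abca15 ran from 4.32 for Abca13 to 5.04 for Abca14. Abca16 had 3.68 on each array (margin -1.95), the lowest margin of the subfamily.

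In subfamily G the sterol exporters of brain and macrophages and the stem cell pump were above. Abcg4, a neural sterol exporter gene, had 8.22, 8.22 and 8.09 (margin 2.55 ± 0.15). Abcg1, its close relative, had 7.26, 7.31 and 7.26 (margin 1.65 ± 0.11). Abcg2 had 7.05, 7.08 and 7.03 (margin 1.43 ± 0.12). It was over 1 log2 unit above the level on each array and was also called at the 99th percentile. Abcg5 and Abcg8, which together form the sterol pump of liver and intestine, were not above. Abcg5 had 5.16, 4.89 and 5.16 (margin -0.55 ± 0.088), and Abcg8 5.09, 5.09 and 5.20 (margin -0.50 ± 0.050). Abcg3 had 3.80, 3.38 and 3.76 (margin -1.98 ± 0.16).

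Of 10 members listed for sterol and phospholipid export, 8 were above (80%, beside 59.1% of all genes), all but Abcg5 and Abcg8. At the 99th percentile 6 of the 10 were, beside 44.9% of all genes. All 15 measured genes of a list on sterol handling and its control, not limited to efflux, were above the reference level. Among them were the sterol-sensing receptor gene Nr1h3 (6.29 ± 0.013), its partner receptors Rxra (7.22 ± 0.024) and Rxrb (7.79 ± 0.058), and Apoe (10.91), the main lipid acceptor of brain. All 15 stand beside 59.1% of all genes. At the 99th percentile 12 of the 15 were above, beside 44.9% of all genes, and Nr1h3 was not.

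In subfamily C, Abcc5, a carrier gene for cyclic nucleotides and other anions, had 9.01, 9.03 and 9.01 (margin 3.39 ± 0.099). Abcc1, the pump gene for glutathione conjugates, had 8.42, 8.44 and 8.42 (margin 2.80 ± 0.10), and Abcc4, a cyclic nucleotide and prostaglandin pump gene, 8.42, 8.42 and 8.37 (margin 2.78 ± 0.12). Abcc10 had 7.07, 7.15 and 7.07 (margin 1.47 ± 0.13). The apical pump gene Abcc2, known from liver, had 5.43, 5.24 and 5.49 (margin -0.24 ± 0.051), and Abcc3 had 5.27 on each array (margin -0.35). Both lay under the level on each array. Of 9 members grouped as drug and conjugate efflux genes, 5 were above (Abcc1, Abcc4, Abcc5, Abcc10 and Abcg2) and Abcb1a, Abcb1b, Abcc2 and Abcc3 were not. That share, 55.6%, was near the 59.1% of all genes. Among 9 listed regulators of such genes 7 were above (77.8%, beside 59.1% of all genes), with Ahr (6.67 ± 0.21), Arnt (10.57), Nfe2l2 (11.19) and Keap1 (7.06) above and the xenobiotic receptor genes Nr1i2 (4.56 ± 0.13) and Nr1i3 (5.14) not above. At the 99th percentile 4 of the 9 were, near the 44.9% of all genes, and the calls of Ahr, Hnf4a and Ppara ended.

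The remaining genes of C were close to the level. Abcc6, whose loss causes ectopic calcification, had 6.32, 5.88 and 6.49 (margin 0.60 ± 0.23) and was above. Abcc8, the sulphonylurea receptor gene of pancreatic beta cells and neurons, had 5.98, 5.49 and 6.01 (margin 0.20 ± 0.21, limma adjusted p = 0.00719). On array 2 it lay under that array's level of 5.53. Its call ended without array 1 (limma adjusted p = 0.33), without array 3 (0.0909) and with 1 level for all arrays (0.253). With the gene's own spread the adjusted p was 0.198. Of the 15 alternatives, 7 kept the call. Abcc9, the sulphonylurea receptor gene of vessels and heart, had 5.75, 5.66 and 5.75 (margin 0.09 ± 0.050, limma adjusted p = 0.186), over the level on each array by no more than 0.12 and not called. Abcc12 had 5.58, 5.46 and 5.74 (margin -0.03 ± 0.048), over the level on array 3 only and not called. Of the pore genes that form channels with these receptors, Kcnj11 had 6.15 ± 0.16 and was above and Kcnj8 had 4.89 ± 0.28 and was not. The call of Kcnj11 ended at the 99th percentile.

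**Figure D3:**
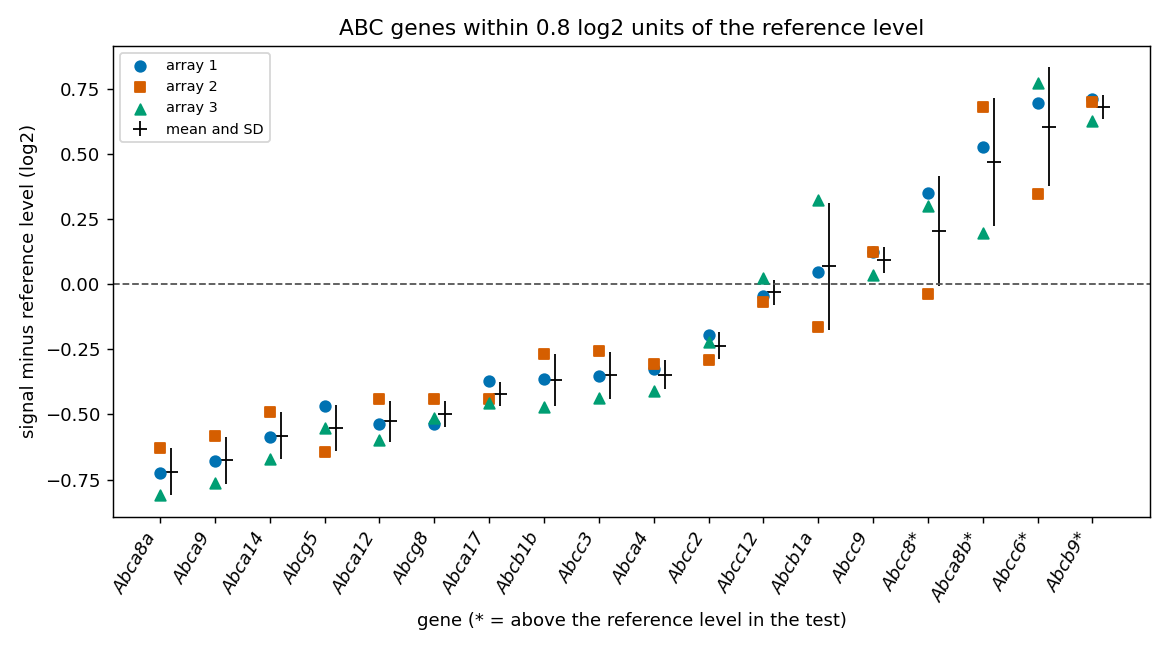
Margin over the reference level (log2, vertical axis) of the ABC genes within 0.8 log2 units of it, on array 1 (circles), array 2 (squares) and array 3 (triangles), with mean and SD of the 3 arrays beside them and an asterisk for genes above the level in the test. Abcb1a, Abcc8 and Abcc12 lie on both sides of the dashed line, and Abcc9 lies over it on each array without passing the test.

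Some ABC genes lie next to each other, in 10 adjoining pairs. In 6 of these pairs both genes had the same call, in each case not above, and in 4 the calls differed. Adjoining pairs of other genes were not counted, so this describes the 10 pairs only. Next to each other in RefSeq's gene order are Abca8b, Abca8a, Abca9, Abca6 and Abca5, of which the outer genes Abca8b and Abca5 were above and the inner 3 were not. Abca17 (5.20 ± 0.095, not above) adjoins Abca3 (9.20, above). Abcb1a and Abcb1b (not above) are followed by Abcb4 (above). In the runs Abca14 to Abca16 and Abcg5 to Abcg8 no gene was above. Of 9 members listed as known mainly from other organs, such as liver, retina, skin and pancreas, 2 were above, Abcc6 and Abcc8 (22.2%, beside 59.1% of all genes), and 0 were at the 99th percentile (44.9% of all genes). That list leaves out Abca3 and Abcb4, which are also known from lung and liver and were above. Probe sequences were not used here, so cross-hybridisation between near copies such as Abcb1a and Abcb1b was not tested.

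Promoters of the members were compared because they are a feature that the rule did not use. The RefSeq promoter table (build GRCm38.p6) gives 300 bases for each listed start, from 250 before it to 50 after, and held 45 promoters of 38 members. No entry was found for Abca6, Abcb8, Abcc1, Abcc3, Abcc6, Abcc8, Abcd2, Abcd4, Abcg1 and Abcg4. A promoter was counted as CG-rich when over 50% of its bases were G or C and its CG dinucleotides exceeded 0.6 of the number expected from its base composition. A gene was counted as having such a promoter when any of its listed ones was CG-rich. Of 19 members above the reference level 17 had a CG-rich promoter (89.5%), and of 19 not above 5 had (26.3%). Among these, Abcc4, Abcc10, Abcg2 and Abcg8 also have a listed promoter that is not CG-rich. Over all genes with a promoter the shares were 71.8% of 10263 above and 12.3% of 6655 not above, so members followed the direction seen over all genes. Receptor genes that set the level were not removed from these, and the 12.3% was not computed without them. The exceptions were named by gene. Abca8b and Abcb6 were above without such a promoter, with ratios of 0.506 and 0.547. Abca4, Abca14, Abca15, Abca17 and Abcg8 were not above with one, at 0.63, 0.983, 0.659, 0.726 and 0.663. The members just inside and just outside the ratio of 0.6 were Abcc10 (0.616) and Abcb6 (0.547). This comparison was chosen after the values were seen, and the arrays do not measure which start was used.

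Promoters of 6 members are printed 5′ to 3′ on the strand of the gene to show this range, with each CG dinucleotide in capitals. Abce1, Abca1, Abcg2 and Abcb4 were above the reference level, and Abcb1a, which precedes Abcb4 on the chromosome, and Abcc2 were not. Abcg2 has 3 listed starts, and the start with the highest CG ratio is shown. The promoters of its other starts, with ratios of 0.16 and 0.58, are not CG-rich.
Abce1, chr8:79711691-79711990, minus strand: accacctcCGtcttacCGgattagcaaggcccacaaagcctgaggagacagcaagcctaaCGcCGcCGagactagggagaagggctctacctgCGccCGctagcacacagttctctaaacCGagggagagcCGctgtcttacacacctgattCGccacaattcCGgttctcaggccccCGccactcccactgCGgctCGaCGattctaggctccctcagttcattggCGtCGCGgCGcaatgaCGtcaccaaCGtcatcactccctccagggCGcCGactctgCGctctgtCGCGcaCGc
Abca1, chr4:53159846-53160145, minus strand: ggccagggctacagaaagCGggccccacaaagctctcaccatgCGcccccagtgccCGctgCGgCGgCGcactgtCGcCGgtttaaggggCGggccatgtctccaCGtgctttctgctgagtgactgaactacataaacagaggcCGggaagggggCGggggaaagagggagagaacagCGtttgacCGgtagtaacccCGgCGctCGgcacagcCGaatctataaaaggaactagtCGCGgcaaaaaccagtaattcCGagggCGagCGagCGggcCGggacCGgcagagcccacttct
Abcg2, chr6:58640296-58640595, plus strand: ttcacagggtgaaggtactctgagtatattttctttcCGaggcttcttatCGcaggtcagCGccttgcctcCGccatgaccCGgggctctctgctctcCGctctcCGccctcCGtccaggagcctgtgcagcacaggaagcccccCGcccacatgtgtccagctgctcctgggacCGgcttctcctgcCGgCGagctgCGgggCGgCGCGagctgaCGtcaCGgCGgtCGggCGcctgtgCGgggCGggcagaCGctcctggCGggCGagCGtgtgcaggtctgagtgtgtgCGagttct
Abcb4, chr5:8893471-8893770, plus strand: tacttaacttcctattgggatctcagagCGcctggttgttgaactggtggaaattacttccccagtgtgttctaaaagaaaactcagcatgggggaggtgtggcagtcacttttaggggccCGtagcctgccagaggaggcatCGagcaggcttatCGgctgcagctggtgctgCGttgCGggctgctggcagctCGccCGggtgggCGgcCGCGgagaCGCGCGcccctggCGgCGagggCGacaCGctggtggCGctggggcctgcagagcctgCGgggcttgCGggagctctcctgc
Abcb1a, chr5:8566841-8567140, plus strand: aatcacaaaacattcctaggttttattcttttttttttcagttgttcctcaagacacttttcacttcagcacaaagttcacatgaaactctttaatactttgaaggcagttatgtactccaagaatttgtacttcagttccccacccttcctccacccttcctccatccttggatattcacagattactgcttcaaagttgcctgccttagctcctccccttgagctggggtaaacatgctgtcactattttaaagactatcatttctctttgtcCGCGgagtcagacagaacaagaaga
Abcc2, chr19:43782058-43782357, plus strand: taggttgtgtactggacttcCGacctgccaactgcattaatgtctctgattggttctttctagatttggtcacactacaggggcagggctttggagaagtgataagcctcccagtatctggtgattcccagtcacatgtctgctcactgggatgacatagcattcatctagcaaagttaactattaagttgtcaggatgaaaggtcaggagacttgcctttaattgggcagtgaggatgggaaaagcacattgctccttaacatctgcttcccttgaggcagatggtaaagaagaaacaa
The printed promoters of Abce1, Abca1, Abcg2 and Abcb4 hold 27, 26, 28 and 21 CG dinucleotides, with ratios of 0.991, 0.888, 0.832 and 0.703. Those of Abcb1a and Abcc2 hold 2 and 1, with ratios of 0.181 and 0.067.

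**Figure D4:**
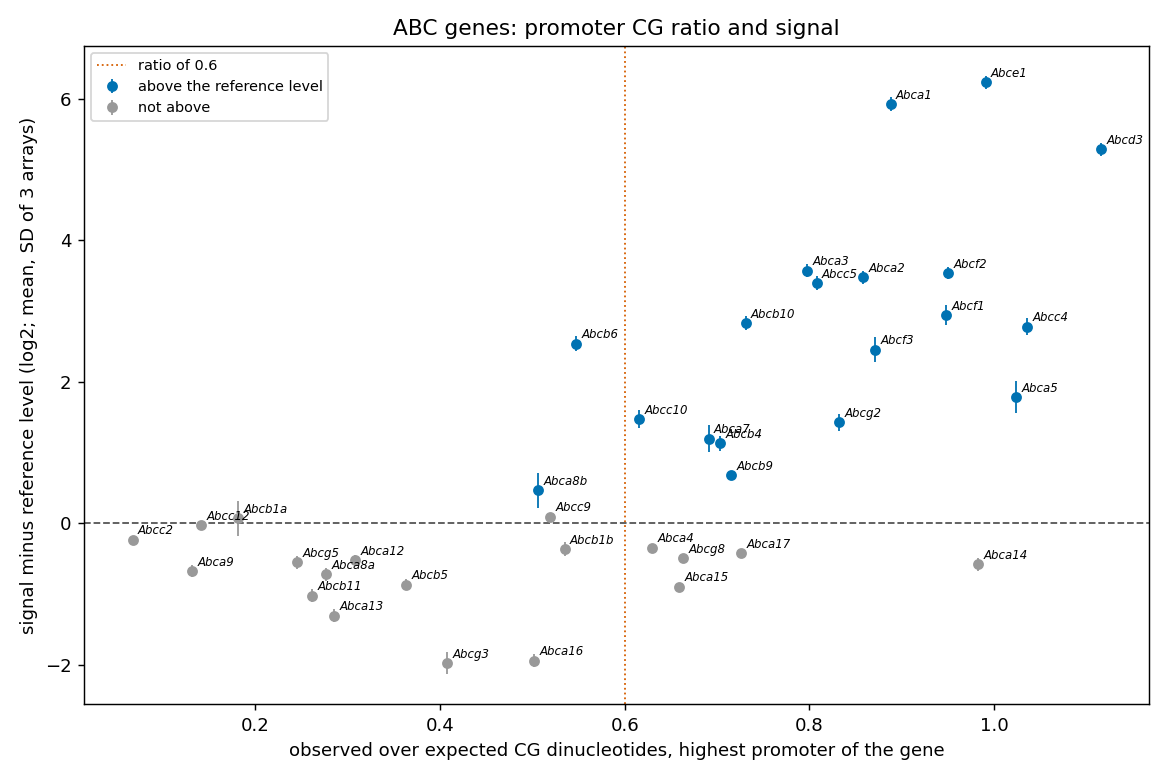
Margin over the reference level (log2, mean and SD of 3 arrays, vertical axis) against the ratio of observed to expected CG dinucleotides in the gene's most CG-rich promoter (horizontal axis) for the 38 ABC genes with a listed promoter; colour marks genes above the reference level and the dotted line a ratio of 0.6. Of the genes above the level, Abca8b and Abcb6 lie left of the dotted line, and Abca14, at 0.983, has the highest ratio among genes not above.

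Short motifs were searched on both strands of the same promoters. The letters GGGCGG were in 21 of 45 ABC promoters (46.7%, against 35.7% of 32851 promoters), CCAAT in 16 (35.6% against 37.4%), TATAAA in 7 (15.6% against 13.6%) and CACGTG in 6 (13.3% against 7.15%). Of the ABC promoters 53.3% were CG-rich, against 33.3% of all promoters. GGGCGG and CACGTG themselves hold a CG, and these shares were not adjusted for base composition. GGTNA followed after 5 bases by GGTNA, a form of the direct repeat that liver X receptors such as the product of Nr1h3 bind, was in 0.718% of all promoters and in 1 ABC promoter, that of Abca1. It reads as follows on the gene's strand, from base -67 to base -53 relative to the start, with the repeated letters in capitals. There the repeat runs on the opposite strand. The Abca1 promoter also held the TATAAA letters, as well as GGGCGG and the CACGTG box.
Abca1 repeat: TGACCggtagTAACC
These matches describe the letters only and were not tested as sites.

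The last question was how far the arrays differed. Of the 48 genes, 11 had exactly equal values on all 3 arrays and 26 on a pair of them, and 75% of all genes shared such equal values. The source of these ties was not tested, and an SD of 0 here says only that the deposited values are equal. The median range over the arrays was 0.052 for ABC genes and 0.036 for all genes. A range over 0.5 was found for 3 members: Abcb1a (0.67), Abcc6 (0.61) and Abcc8 (0.52). This is 6.25% of the members, near the 5.31% of all genes. The next in order were Abcg3 (0.41) and Abca8b (0.30). Among all genes 2.59% had a wider range than Abcb1a. Abcb1a, Abcc6, Abcc8 and Abcg3 were lowest on array 2, and Abca8b was lowest on array 3. Of 17 members with a range over 0.1, 12 (70.6%) had their lowest value on array 2, alone or tied, beside 48.4% of 7801 genes counted alike. Among them Abca6 and Abcg8 were equally low on array 1. The reference level was also lowest on array 2. In the test of each gene's spread against that of genes of like signal (limma's residual variance of the margins, F test), 0 ABC genes passed at an adjusted p under 0.05, against 1.86% of all genes. At an unadjusted p under 0.05 there were 2, Abcb1a and Abca8b (4.17%, beside 6.44% of all genes).

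Markers of cell types that carry some of these genes were read on the same arrays. Of 10 endothelial markers 2 were above the reference level (20%, beside 59.1% of all genes), the transporter genes Slco1c1 (7.68 ± 0.039) and Mfsd2a (9.84 ± 0.059), while Cldn5 (5.11), Pecam1 (5.30), Cdh5 (5.48 ± 0.058) and Flt1 (5.46) were not. Of 8 pericyte markers 3 were above, Rgs5 (7.25 ± 0.12), Pdgfrb (6.99 ± 0.11) and Cspg4 (8.15), the last also a gene of oligodendrocyte precursors, and Kcnj8, Vtn (5.29), Anpep (5.23 ± 0.15) and Higd1b (4.86) were not. Microglia markers were above in 2 of 8 cases (Cx3cr1 at 6.66 ± 0.27 and P2ry12 at 6.05 ± 0.16) and choroid plexus markers in 1 of 6 (Ttr at 6.20). Neural stem cell markers were above in 7 of 7 measured, with Sox2 at 11.39 ± 0.073 and Nes at 8.50 ± 0.035. At the 99th percentile the endothelial and pericyte counts stayed at 2 and 3. The microglia, choroid plexus and neural stem cell counts were 0, 0 and 7, beside 44.9% of all genes. The mean of the endothelial list was 5.74 on each array, and that of the pericyte list 5.98, 5.97 and 6.01. Their part in the signals of Abcb1a and Abcc9 was not tested.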

How the data were processed

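Total RNA of cultured neurospheres was labelled with biotin and hybridised to 3 arrays. The authors deposited a table of log2 signals with 41345 probe sets. Per the submitters' processing notes the method was RMA, which corrects background, normalises between arrays and summarises probes; its version and options are not given in the sources used here. Of the probe sets, 23521 carried 1 symbol in the array's annotation table, 1814 several and 16010 none, which left 22180 genes. No genome build is named for the arrays.

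The detection test was fitted on all genes (limma 3.58.1 in R 4.3.3: an intercept, eBayes with an intensity trend). Its prior degrees of freedom were infinite, so genes of like signal shared 1 spread and the margin's own SD had no weight. The number of arrays limits the precision. The steps were run on simulated data with independent noise, 1 spread for all genes and 1 level for all arrays. Those data lack the ties and the shifts in level of the real arrays, so they do not test the steps under them. Every member is named; values on each array are given for the 3 largest margins and the lowest of each subfamily, for members within 0.5 of the level, for the 5 widest ranges and for Abcg2, Abcb1a, Abcb1b, Abcc1, Abca1 and Abce1, and other members were added in places. Of a partner or marker list up to 4 genes above and 4 not above are named in listed order. Members, lists and alternatives were chosen with earlier results of these data known. The planned count of protein motifs was not run, and protein sequences were not used here. Figures were drawn with matplotlib 3.10.9.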

Additional observations from a re-analysis of the deposited data

How the results depend on the processing

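The count of ABC genes above the reference level stayed within 1.5 times the reported 27 under each of the 15 alternatives run for it, from 21 (99th percentile, and other reference genes) to 30 (90th percentile). It ran from 26 to 28 when an array was left out. The other reference genes were 142 probe sets of defensin, bitter taste receptor and keratin-associated protein genes. In subfamily B the count was 3 in place of 5 with the 99th percentile and with the other reference genes. The counts of the other 6 subfamilies stayed within 1.5 times of those reported. For A and C this was only just so: A ran from 4 to 6 and C from 4 to 8, where 6 was reported for each.

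At the 99th percentile the margins of Abca8b, Abcb9, Abcc6 and Abcc8 were -0.31, -0.097, -0.17 and -0.57, and with the other reference genes -0.34, -0.13, -0.21 and -0.61, so these 4 calls ended, as did those of Abca7 and Abcb4 with margins still over 0. At the 90th percentile Abcb1a, Abcc9 and Abcc12 were above. Median centring, a further quantile normalisation, the median over probe sets, no intensity trend and leaving out genes under the 25th percentile of mean signal changed no call of an ABC gene they tested, and no ABC gene passed the test of differences between arrays in any alternative. The test without pooling, the rule of lying above on each array and the test of signals in place of margins were added after the data were seen. No paired analysis was possible because there is 1 group. A signal near the reference level does not show that a transcript was absent.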

Other observations

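Genes of the ABC superfamily that carry other names were read in the same way. Tap1 and Tap2, which together carry peptides into the endoplasmic reticulum for class I molecules, had signals of 7.39 and 6.60 ± 0.096 (SD, n = 3) and were above the reference level, while the chloride channel gene Cftr had 3.78 on each array and was not. The call of Tap2 ended at the 99th percentile. Of 8 genes of peptide loading 7 were above, among them Tapbp (8.36), Calr (12.78 ± 0.027), Canx (13.05) and Pdia3 (12.24), and the immunoproteasome gene Psmb8 (5.65 ± 0.031) was not. The list was chosen with earlier results of these data known, and 59.1% of all genes were above the level.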
